A study of Ziziphus jujuba var. spinosa with 24 samples.

Results

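The genes described here are 77 genes of sour jujube (Ziziphus jujuba var. spinosa) whose transcripts were nearly lost in leaves of autotetraploid plants after 48 h of drought treatment. They were chosen by their values in 6 libraries: the mean level in the autotetraploid 48 h libraries was at most 1/8 of the mean in the autotetraploid control libraries, all 3 of the 48 h libraries lay below all 3 of the controls, and the control mean lay between 2 and 1000 counts in every 1000000 counts of a library (CPM). Of the 32527 genes in the count table, 29293 had an identifier of the LOC form and 18039 of these had a control mean in that range. The rule therefore took 0.427% of the genes that could have met it. All values of the autotetraploid 48 h and autotetraploid control groups below are a description of the choice and carry no test.

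Leaves of diploid and autotetraploid plants were sequenced in 24 libraries of total RNA, 3 in each of 8 groups. The diploid is labelled wild type and the tetraploid by its ploidy alone, and plants of both had grown in tissue culture for 30 days and then on rooting medium for 45 days; they were moved to nutrient solution, and the osmotic agent PEG6000 (a polyethylene glycol), which withholds water from the roots, was raised in steps to 20%. Each ploidy had an untreated control and leaves taken at 6, 12 and 48 h of drought. The labels do not say from which step these hours were counted, at which hour of the day leaves were taken, or whether the 3 libraries of a group were made from separate plants, and the p-values below reflect library-to-library spread that may be technical. The labels name no line or clone of the autotetraploid, so whether the plants stem from 1 polyploid event is not known here.

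An autotetraploid carries the chromosome sets of a single species in duplicate relative to its diploid parent, and so starts from the same genes. Whether the plants of both ploidies used here hold the same genes was not examined. When water is withheld, leaf cells lose turgor, abscisic acid rises and stomata close, and large groups of genes are switched on or off. Genes for growth and photosynthesis commonly fall, and genes for protective proteins and compatible solutes rise. The identifiers of the 77 genes are paired with no gene name or description in the sources used here, so no role is given to any of them. In bulk leaf RNA, fewer cells of a type and less RNA per cell cannot be told apart.

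Libraries held 30750412 to 50404402 counts, and no 2 libraries were identical. RCA2, which encodes a Rubisco activase of leaf photosynthesis, was present at 1717 CPM or more in every library, as the leaf label implies. Levels of the 8 photosynthesis and reference genes that the table names differed between autotetraploid 48 h and control by ratios of 0.473 (TUA, a tubulin) to 1.61 (RCA1, the other Rubisco activase). Some libraries stood apart in the 77 genes: replicate 3 of the autotetraploid 12 h group was the lowest of its group in 63 of them, replicate 3 of the diploid 48 h group was the lowest in 57, replicate 3 of the diploid control was the highest in 53, and replicate 3 of the autotetraploid control was the highest in 59. The same autotetraploid 12 h library lay at 0.669 to 1.19 times the mean of its 2 fellow libraries in the 8 named genes. Markers of other cell types were not evaluated, because the identifiers carry no descriptions, and the part of a differing cell makeup in the values below was not tested.

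The summed level of the 77 genes was 57.5, 49.4 and 37.7 CPM in the autotetraploid 48 h libraries and 502, 859 and 2176 CPM in the autotetraploid controls. The group means were 48.2 ± 9.92 and 1179 ± 882 CPM (SD, n = 3), and the lowest control sum was 8.72 times the highest 48 h sum. At 6 h the autotetraploid libraries held 1529, 631 and 1739 CPM, and at 12 h they held 824, 1701 and 232 CPM. The 6 h libraries lay within the range of the controls, and at 12 h only replicate 3 lay below it. In the diploid the controls held 1362, 1112 and 2985 CPM, the 6 h libraries 891, 567 and 627 CPM, and the 12 h libraries 925, 714 and 714 CPM. The diploid 48 h libraries held 676, 1808 and 245 CPM. Every diploid library at 6 and 12 h lay below every diploid control, whereas at 48 h 1 library lay inside the control range and the other 2 lay below it. The diploid group means were 1820 ± 1017 CPM in the control, 695 ± 172 at 6 h, 784 ± 122 at 12 h and 910 ± 807 at 48 h (SD, n = 3). No diploid library came down to the level of the autotetraploid 48 h libraries: the lowest, replicate 3 at 48 h, held 245 CPM. The sum gives most weight to the most abundant genes. The median level over the 77 genes was 1.78 CPM in that diploid library and 0.579 CPM in replicate 3 of the autotetraploid 12 h group. In the autotetraploid 48 h libraries it was 0.139 to 0.210 CPM. The number of the 77 genes with no read was 15, 19 and 20 in the autotetraploid 48 h libraries, 8 in replicate 3 of the autotetraploid 12 h group, and 0 to 5 in the other libraries.

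**Figure D1:**
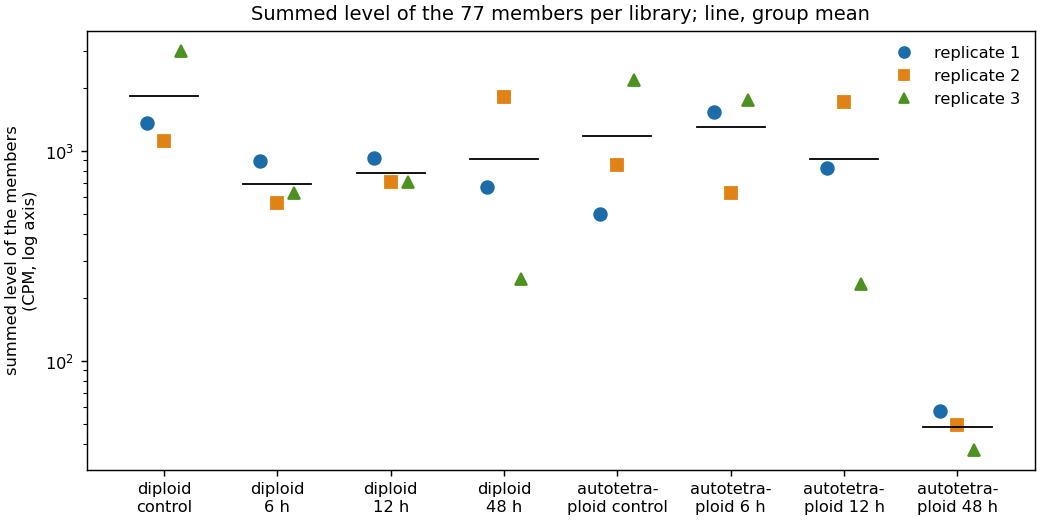
Summed level of the 77 genes in each library, in CPM on a log axis, by group; points are libraries (circles, squares and triangles for replicates 1, 2 and 3) and horizontal lines are group means. The autotetraploid 48 h libraries sit between 37.7 and 57.5 CPM, below all others, and the next lowest are replicate 3 of the autotetraploid 12 h group at 232 CPM and replicate 3 of the diploid 48 h group at 245 CPM.

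The mean level in the autotetraploid control ranged from 2.01 to 135 CPM over the 77 genes, with a median of 5.44 CPM, and 25 genes reached 10 CPM. At 48 h the median gene stood at 3.34% of its control mean, against 97.4% for the other genes in the same range of control levels. Of the 77 genes, 49 stood at 1/16 or less and 20 at 1/100 or less. In 71 genes the autotetraploid 48 h mean was the lowest of all 8 group means. In 31 genes all 3 autotetraploid 48 h libraries lay below each of the other 21 libraries, and in 47 genes they lay below the other 20 when replicate 3 of the autotetraploid 12 h group was left aside. Scaled also by transcript length, as FPKM, the control means ran from 1.20 to 138 with a median of 3.98. The highest were LOC107415096 at 138 FPKM, LOC107417442 at 104 FPKM, LOC107423864 at 67.5 FPKM and LOC107414538 at 55.5 FPKM. The transcript length derived from counts and FPKM had a median of 1.46 kb in the 77 genes and 1.96 kb in the other genes of the range. In the autotetraploid 48 h table of FPKM values, which lists genes that reach 0.1 in some library, 51 of the 77 were listed.

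**Figure D2:**
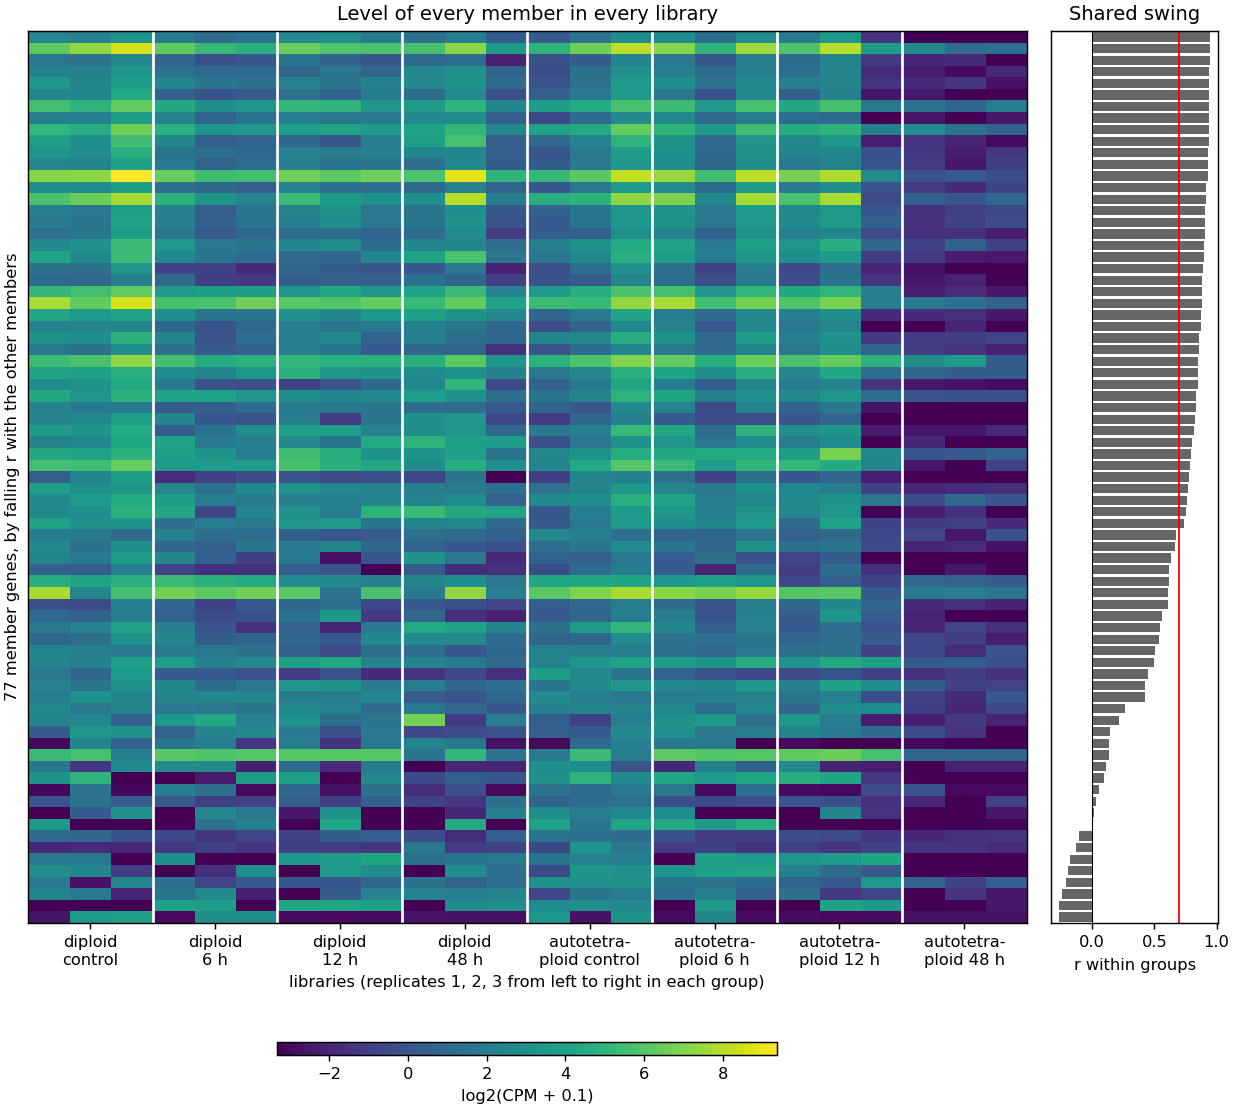
Level of each of the 77 genes (rows) in each library (columns), as log2(CPM + 0.1), with rows ordered by the correlation of a gene with the other members, drawn as bars at the right; the red line marks 0.7. The autotetraploid 48 h columns are the darkest in most rows, and in most of the upper 43 rows replicate 3 of the autotetraploid 12 h group and replicate 3 of the diploid 48 h group are dark beside brighter fellow libraries.

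The 6 genes with the highest control means differed in how far apart their control libraries lay. LOC107415096 was at 30.3, 96.3 and 278 CPM in the autotetraploid controls and at 6.72, 2.15 and 2.59 CPM at 48 h. LOC107417442 was at 35.5, 70.7 and 294 CPM in the controls and at 0.865, 1.18 and 0.725 CPM at 48 h. LOC107414538 was at 24.1, 29.4 and 155 CPM in the controls and at 1.46, 0.917 and 1.84 CPM at 48 h. In all 3 of these genes replicate 3 of the control was the highest and replicate 1 the lowest, and no 48 h library came near the lowest control. LOC107412591 was at 41.3, 37.1 and 160 CPM in the controls and at 3.68, 2.59 and 1.62 CPM at 48 h. LOC107428394 was at 27.7, 55.9 and 125 CPM in the controls and at 7.61, 12.7 and 1.20 CPM at 48 h. LOC107423864 was at 69.3, 122 and 211 CPM in the controls and at 3.71, 4.27 and 3.18 CPM at 48 h. The 48 h libraries of LOC107423864 lay close together, whereas those of LOC107428394 differed by a factor of more than 8.

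In the diploid at 48 h the means of the same 6 genes stood at 19.6% to 78.6% of the control means. Replicate 2 was the highest of the 48 h libraries in each of them. LOC107417442 was at 142, 147 and 668 CPM in the diploid controls and at 53.7, 471 and 32 CPM at 48 h. LOC107415096 was at 74.4, 155 and 378 CPM in the diploid controls and at 51.4, 146 and 12.2 CPM at 48 h. LOC107414538 was at 52.4, 92.8 and 201 CPM in the diploid controls and at 7.86, 260 and 4.24 CPM at 48 h. In these genes the 48 h libraries of the diploid overlapped the controls through replicate 2, while replicates 1 and 3 lay below the lowest control. LOC107412591 was at 221, 80.5 and 386 CPM in the diploid controls and at 38.1, 81.0 and 16.0 CPM at 48 h. LOC107428394 was at 41.5, 55.4 and 147 CPM in the diploid controls and at 26.0, 73.4 and 9.60 CPM at 48 h. LOC107423864 was at 211, 5.33 and 49.7 CPM in the diploid controls and at 3.59, 161 and 4.19 CPM at 48 h. LOC107423864 already differed widely between the untreated diploid libraries.

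**Figure D3:**
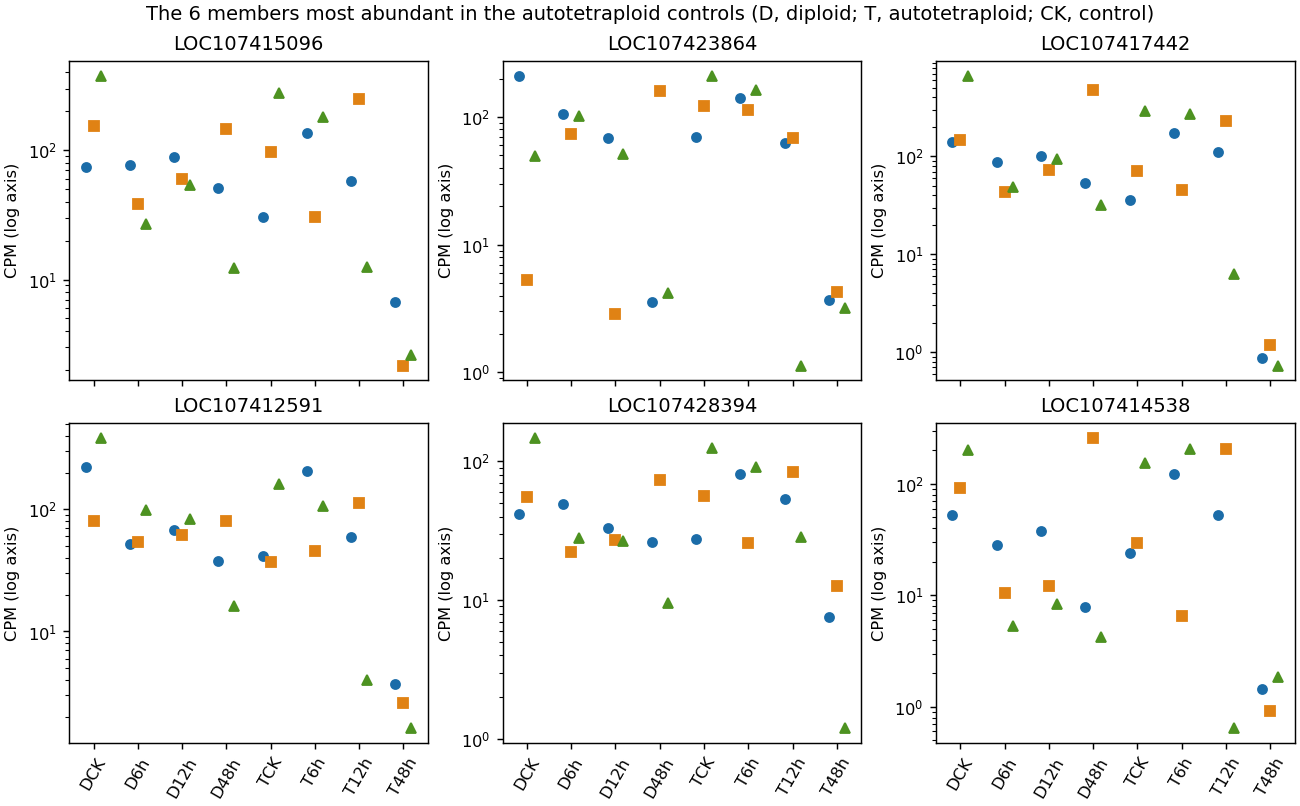
Levels of the 6 genes with the highest autotetraploid control means, in CPM on a log axis, in every library of the 8 groups (D, diploid; T, autotetraploid; CK, control; circles, squares and triangles for replicates 1, 2 and 3). The autotetraploid 48 h libraries lie between 0.725 and 12.7 CPM, and in the autotetraploid 12 h group replicate 3 lies below its 2 fellows in all 6 genes.

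At 12 h in the autotetraploid, replicate 3 already showed low levels of these genes. LOC107417442 was at 111, 229 and 6.31 CPM at 12 h, LOC107414538 at 52.8, 208 and 0.644 CPM, and LOC107423864 at 62.7, 68.8 and 1.13 CPM. Replicate 3 was below its lowest control library in each of them. LOC107415096 was at 57.5, 249 and 12.5 CPM, and LOC107412591 at 59.6, 112 and 4.02 CPM. LOC107428394 was at 53.7, 83.8 and 28.3 CPM, with replicate 3 inside the control range. Over all 77 genes, replicate 3 of the 12 h group lay below all 3 autotetraploid controls in 63 genes and at 1/8 of the control mean or less in 43.

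In 9 of the 77 genes no read was counted in any autotetraploid 48 h library, and in 6 more the 3 libraries held 1 to 3 reads together. A fold against these libraries is a lower bound, taken against 3 counts over the group of 3 libraries, which equal 0.0262 CPM. LOC107405185 was at 8.96, 30.7 and 6.50 CPM in the autotetraploid controls and was at least 587-fold lower at 48 h. LOC107406099 was at 15.8, 3.04 and 17.5 CPM in the controls and was at least 462-fold lower at 48 h. LOC107405357 was at 0.613, 10.3 and 8.44 CPM in the controls and was at least 246-fold lower at 48 h. The controls of LOC107405357 differed from each other by a larger factor than those of LOC107406099 or LOC107405185. The other 6 genes with no read were LOC107409355, LOC107418866, LOC107410829, LOC107434898, LOC107416209 and LOC107416212, with bounds of at least 154-, 141-, 138-, 117-, 84.2- and 80.7-fold. Of the genes with reads left, LOC107429331 was at 11.1, 24.4 and 53.3 CPM in the controls and at 0.0988, 0.210 and 0.0837 CPM at 48 h, a 226-fold lower mean level. LOC107409676 was at 7.81, 4.13 and 5.95 CPM in the controls and held 3 reads at 48 h, all in replicate 3, which gives a ratio of 228 with a 95% counting interval of 77.9 to 1104. LOC107408463 was at 6.93, 8.04 and 6.32 CPM in the controls and also held 3 reads at 48 h, a ratio of 271 with an interval of 92.7 to 1313. Such intervals and bounds cover counting error only.

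Several of these genes were either present or absent from library to library elsewhere in the series. LOC107406099 was at 11.9, 0 and 0 CPM in the diploid controls, at 0, 18.5 and 0 CPM in the diploid at 12 h, and at 0, 20.2 and 0 CPM in the diploid at 48 h. In the autotetraploid it was at 21.9, 11.3 and 23.0 CPM at 6 h and had no read in any library at 12 h. That difference, at least 645-fold against 3 counts over the 12 h group, did not pass the test (adjusted p = 0.17, by edgeR's quasi-likelihood test, adjusted by the Benjamini-Hochberg method). LOC107405185 was at 9.49, 31.0 and 0 CPM in the diploid controls and at 0, 0.0876 and 12.9 CPM in the diploid at 6 h. LOC107409676 was at 0, 1.18 and 8.49 CPM in the diploid controls and at 7.17, 0 and 0 CPM in the autotetraploid at 6 h. For such genes a group mean describes no library of the group. A swing of at least 50-fold between the lowest and the highest library of a group, with the highest at 5 CPM or more, was found in some group other than those of the rule in 20 of the 77 genes (26.0%) and in 616 of the other genes of the range (3.43%). The groups with the most such genes were the autotetraploid 12 h group with 12, the diploid 6 h group with 8 and the diploid 48 h group with 7.

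The limit of 1/8 cut through a continuous run of genes. Just inside it lay LOC107416588, at 6.82, 4.27 and 3.24 CPM in the autotetraploid controls and 0.469, 0.210 and 1.09 CPM at 48 h, a ratio of 8.11. LOC107424060 followed with a ratio of 8.19, from 8.76 CPM to 1.07 CPM. Just outside lay LOC107433231 with a ratio of 8.00, under the limit before rounding, from 81.3 CPM to 10.2 CPM, and LOC107424383 with 7.79, from 29.5 CPM to 3.79 CPM. The list rested in part on replicate 3 of the autotetraploid control: without it 69 genes met the rule, of which 39 were among the 77, whereas 70 to 75 of the 77 met it without any 1 of the other 5 libraries. LOC107409852 met the condition on separate libraries by a narrow margin, with 10.8, 0.0562 and 9.11 CPM in the controls and 0.0494, 0.0524 and 0.0558 CPM at 48 h.

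The diploid libraries were not used by the rule, so the same genes could be tested there against the diploid control. All 77 passed the filter on low counts. After 6 h of drought the 77 genes stood at a median of 38.3% of the diploid control mean, against 100.4% for the other genes of the range, and 49 of them (63.6%) stood at 50% or less, against 5.65% of the others. On the fitted log2 scale the median change was -1.40, against 0.00 over all 25829 genes tested, and 66 of the 77 changes were below 0. By CPM means 65 of the 77 were lower, against 49.4% of the other genes of the range. In edgeR's quasi-likelihood test 5 of the 77 fell and 1 rose at an adjusted p under 0.05, against 9.93% of all genes tested that fell and 11.4% that rose. A share of 5 in 77 lies under that background. DESeq2 called 14 of the 77 lower, against 13.2% of the genes it tested. By non-overlap of the libraries, 31 of the 77 (40.3%) lay lower in all 3 libraries at 6 h than in all 3 controls, against 19.4% of the genes of the range, and 2 (2.60%) lay higher, against 21.6%. The count of genes that fell was 0 to 3 when any 1 of the 6 libraries was left out, and the count with no overlap rose to 51 without replicate 1 of the 6 h group, where the share over the range was 25.9%.

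The 5 genes that fell at 6 h were LOC107411876, LOC107429002, LOC107432125, LOC107433230 and LOC107435816. LOC107432125 was at 2.60, 2.52 and 10.6 CPM in the diploid controls and at 0.504, 0.496 and 0.188 CPM at 6 h. All 3 libraries at 6 h lay below the controls, and the log2 fold change was -3.73 ± 1.20 (SE, n = 3 per group; adjusted p = 0.032, edgeR's quasi-likelihood test). LOC107435816 was at 10.6, 7.30 and 25.0 CPM in the controls and at 2.95, 2.45 and 1.79 CPM at 6 h. It also fell without overlap, by -2.59 ± 0.87 on the log2 scale (adjusted p = 0.040 in the same edgeR fit). The gene that rose was LOC107408463, which had no read in any diploid control and was at 15.5, 13.5 and 0 CPM at 6 h, at least 414-fold over the floor of 3 counts in the control group (adjusted p = 0.044 in edgeR). Its replicate 3 at 6 h was as empty as the controls. All 3 of these calls missed the threshold without replicate 1 or 2 of the 6 h group, without replicate 3 of the control, and with the replicate number as a block. LOC107432125 and LOC107435816 also missed it without replicate 3 of the 6 h group, LOC107435816 and LOC107408463 without replicate 1 of the control, and LOC107408463 without replicate 2 of the control.

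After 12 h the 77 genes stood at a median of 48.8% of the diploid control mean, against 108% for the other genes of the range, and 39 (50.6%) stood at 50% or less, against 8.57%. The median fitted log2 change was -1.15, and 64 of 77 changes were below 0. By CPM means 62 of the 77 were lower, against 41.1% of the other genes of the range. Of the 77, 7 fell and 1 rose in edgeR's test, against 15.5% of all genes that fell and 14.6% that rose, so the share that fell again lay under the background. DESeq2 called 13 of the 77 lower, against 17.6% of the genes it tested. By non-overlap, 31 (40.3%) were lower, against 19.6% of the range, and 4 (5.19%) were higher, against 31.5%. The count that fell was 2 to 5 when 1 library was left out, with 2 without replicate 1 or replicate 2 of the 12 h group and 4 without its replicate 3 or without replicate 2 of the control.

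The 7 genes that fell at 12 h were LOC107405888, LOC107409852, LOC107411876, LOC107413975, LOC107422767, LOC107429331 and LOC107431745. LOC107411876 was at 3.28, 1.83 and 11.9 CPM in the diploid controls, at 1.16, 1.20 and 0.846 CPM at 6 h, at 0.366, 0.928 and 0.195 CPM at 12 h, and then at 0.278, 0.597 and 0.244 CPM at 48 h. Every treated diploid library of this gene lay below every diploid control, and the fold changes were -2.42 ± 0.68, -3.63 ± 0.72 and -3.90 ± 0.73 on the log2 scale at 6, 12 and 48 h (SE, n = 3 per group; adjusted p = 0.016, 0.00077 and 0.015 in edgeR). The change at 12 h held under every alternative run; the change at 48 h missed the threshold without replicate 1 or 3 of the 48 h group, without replicate 3 of the control, and in a fit of the compared libraries alone (adjusted p = 0.16). LOC107429331 was at 34.1, 46.6 and 78.4 CPM in the diploid controls and at 9.95, 19.2 and 9.79 CPM at 12 h. The groups did not overlap, and the change was -2.16 ± 0.76 (adjusted p = 0.039 in edgeR, n = 3 per group). LOC107409852 was at 0.0638, 12.2 and 15.1 CPM in the diploid controls and at 0.0282, 0.0244 and 0.0325 CPM at 12 h. Its replicate 1 in the control was already near the treated level, and the change of -8.28 ± 2.43 (adjusted p = 0.015 in edgeR) missed the threshold without any 1 of the 12 h libraries. LOC107408463 rose again, with 17.6, 18.2 and 14.4 CPM at 12 h against no read in the controls, at least 715-fold over the control floor (adjusted p = 0.025 in edgeR), a call that missed the threshold without any 1 of the controls.

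After 48 h the 77 genes stood at a median of 42.6% of the diploid control mean, against 99.4% for the other genes of the range. Of the 77, 45 (58.4%) stood at 50% or less, against 530 of the others (2.95%). At 1/8 or less stood 5 (6.49%), against 35 of the others (0.195%). The median level over the 77 genes was 5.30, 5.30 and 12.0 CPM in the controls and 4.03, 5.45 and 1.78 CPM at 48 h. Replicate 3 was thus the highest control and the lowest 48 h library in this median. The ratios of group means were not taken without replicate 3. The median fitted log2 change was -1.21, against 0.01 over all genes tested, and 63 of 77 changes were below 0. By CPM means 63 of the 77 were lower, against 51.1% of the other genes of the range. In edgeR's test 2 of the 77 fell and 0 rose, against 0.910% of all genes that fell and 1.10% that rose. At an unadjusted p under 0.05, 17 were lower, against 8.92% of all genes, and 3 were higher, against 9.66%. DESeq2 called 7 lower, against 3.78% of the genes it tested, and 2 higher, against 3.73%. By non-overlap, 25 (32.5%) were lower, against 12.5% of the range, and 1 (1.30%) was higher, against 12.7%. Without replicate 2 of the diploid 48 h group, 43 of the 77 were lower without overlap, against 17.3% of the range, and without replicate 3 the count was 27, against 16.2%. The count that fell in edgeR's test was 0 without replicate 3 of the 48 h group and 1 without its replicate 1 or without replicate 3 of the control.

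**Figure D4:**
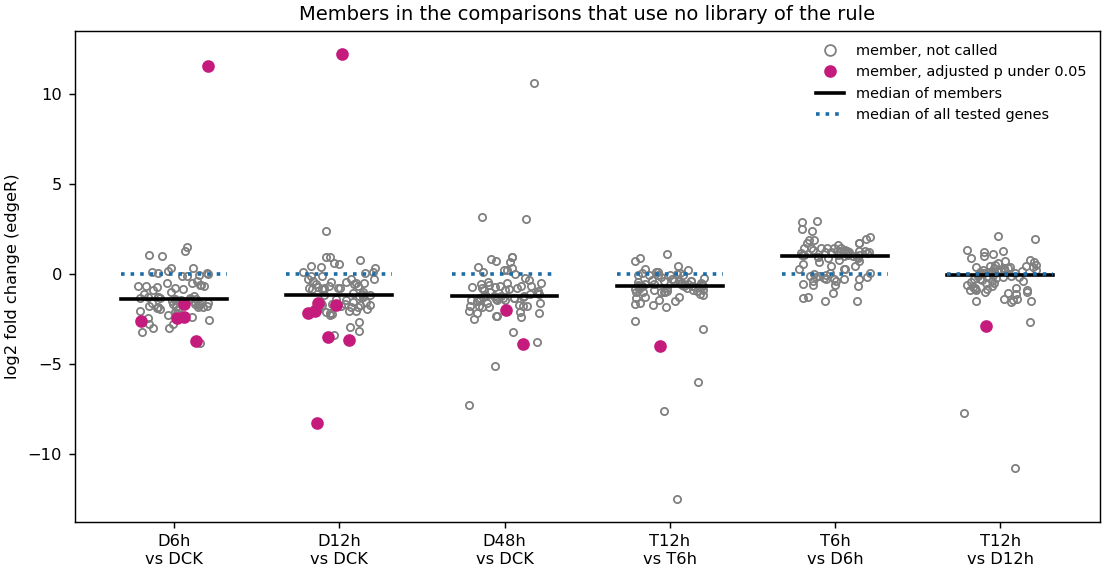
Fitted log2 fold changes of the 77 genes in the 6 comparisons that use no library of the rule; open points are genes, filled points are those that passed edgeR's quasi-likelihood test. The cloud lies mostly below 0 in the 3 diploid drought comparisons, with medians of -1.40, -1.15 and -1.21, and few points pass. Points beyond 10 in either direction belong to LOC107408463 and LOC107406099, which had no read in a group, so their fitted values have no fixed size.

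The 2 genes that fell at 48 h in the diploid were LOC107411876, given above, and LOC107422767. LOC107422767 was at 23.9, 16.9 and 27.5 CPM in the diploid controls, at 38.0, 28.9 and 22.3 CPM at 6 h, at 6.96, 6.55 and 4.23 CPM at 12 h and at 5.65, 8.19 and 3.19 CPM at 48 h. The diploid libraries at 12 and 48 h lay below all controls, whereas those at 6 h did not. The log2 fold changes were -2.07 ± 0.37 at 12 h and -1.98 ± 0.37 at 48 h (SE, n = 3 per group; adjusted p = 0.00026 and 0.015 in edgeR). The change at 48 h missed the threshold without replicate 3 of the 48 h group (log2 fold change -1.70, adjusted p = 0.062) and in a fit of the compared libraries alone (adjusted p = 0.14). In the autotetraploid this gene was at 19.8, 21.2 and 17.6 CPM in the controls, at 11.0, 15.4 and 9.81 CPM at 6 h, at 0.568, 1.41 and 0.515 CPM at 12 h and at 2.00, 1.55 and 1.14 CPM at 48 h. Its autotetraploid libraries lay close together in each group, unlike those of most of the 77, and its lowest level was reached at 12 h.

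The rule applied to the diploid in the same way, with diploid 48 h against diploid control, took 29 of 18177 genes (0.160%). Of these, LOC107405921, LOC107411876, LOC107409731 and LOC107409852 were also among the 77, which is 5.19% of the 77 and 13.8% of the 29. In 14 of the 77 genes the diploid mean at 48 h was above that of the diploid control. LOC107434706 had the largest rise in mean CPM, from 4.13 to 36.5 CPM, and its 48 h libraries were at 105, 0.353 and 3.90 CPM. That mean rested on replicate 1, while replicate 3 lay inside the range of the controls and replicate 2 below it. LOC107421975 was the gene whose 48 h libraries all lay above the diploid controls, with 3.31, 0.380 and 0.511 CPM against 0.170, 0.191 and 0.156 CPM. Its log2 fold change of 3.04 ± 0.82 did not pass the test (adjusted p = 0.060, edgeR's quasi-likelihood test).

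Within the autotetraploid, 12 h and 6 h could be compared without a library of the rule. The 77 genes stood at 12 h at a median of 70.5% of the 6 h mean, against 109% for the other genes of the range. By CPM means 61 of the 77 were lower at 12 h, against 33.6% of the others. After edgeR's scaling of the libraries, 67 of the 77 fitted changes were below 0. Their median was -0.64 on the log2 scale, against -0.01 over all genes. In edgeR's test 1 of the 77 fell and 0 rose, against 5.13% and 2.92% of all genes. At an unadjusted p under 0.05, 4 were lower and 0 were higher, against 11.5% and 8.60% of all genes, and DESeq2 called 4 lower and 0 higher, against 7.43% and 4.94%. These shares of the 77 lie under the background. The gene that fell was LOC107422767, by -3.99 ± 0.41 on the log2 scale (adjusted p = 2.1e-06 in edgeR, n = 3 per group), and it did so under every alternative run, also without replicate 3 of the 12 h group.

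Between the ploidies, the 77 genes stood in the autotetraploid at 6 h at a median of 198% of the diploid at 6 h, against 100.1% for the other genes of the range, and 56 of 77 fitted changes were above 0. By CPM means 21 of the 77 were lower in the autotetraploid, against 49.7% of the others. In edgeR's test 0 of the 77 differed in either direction, against 0% of all genes lower and 0% higher, the smallest adjusted p over all genes being 0.39. At an unadjusted p under 0.05, 2 of the 77 were higher and 1 was lower, against 3.38% and 4.05% of all genes, and DESeq2 called 1 lower and 0 higher, against 0.185% and 0.195%. By non-overlap 6 (7.79%) were higher in the autotetraploid at 6 h, against 8.89% of the range, so the shift of the median was not accompanied by more separate groups than elsewhere. At 12 h the median fitted difference was -0.07, and 1 of the 77 was lower and 0 were higher in the autotetraploid, against 0.0155% and 0.00387% of all genes tested. At an unadjusted p under 0.05, 3 were lower and 0 were higher, against 3.16% and 2.16% of all genes, and DESeq2 called 3 lower and 0 higher, against 0.341% and 0.167%. By non-overlap 3 (3.90%) were lower, against 3.52% of the range. The gene that was lower at 12 h was again LOC107422767, by -2.86 ± 0.39 (adjusted p = 0.023 in edgeR, n = 3 per group), a call that missed the threshold without replicate 1 or replicate 3 of the autotetraploid 12 h group and in a fit of the compared libraries alone. Before treatment, the diploid control mean was above the autotetraploid control mean in 56 of the 77 genes, with a median of 65.2% for autotetraploid over diploid. At 48 h the autotetraploid stood at a median of 6.36% of the diploid, and both of these ratios use libraries of the rule.

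The 77 genes varied more between libraries of a group than other genes did. The median standard deviation of log2(CPM + 0.1) over the 3 libraries was 0.927 in the diploid control, against 0.203 in the other genes of the range and 0.293 in those of them under 10 CPM in the autotetraploid control. It was 0.739 against 0.154 in the diploid at 6 h, 0.781 against 0.146 at 12 h and 1.16 against 0.145 at 48 h. In the autotetraploid it was 1.00 against 0.140 at 6 h and 1.58 against 0.198 at 12 h. Of the 77 genes, 46, 38, 39 and 52 lay above the 95th percentile of the others in the diploid control and at 6, 12 and 48 h, and 50 and 57 did so in the autotetraploid at 6 and 12 h. In the groups of the rule the values were 1.33 against 0.164 in the autotetraploid control and 0.506 against 0.164 at 48 h. Members near 0 have little room to vary on this scale at 48 h.

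**Figure D5:**
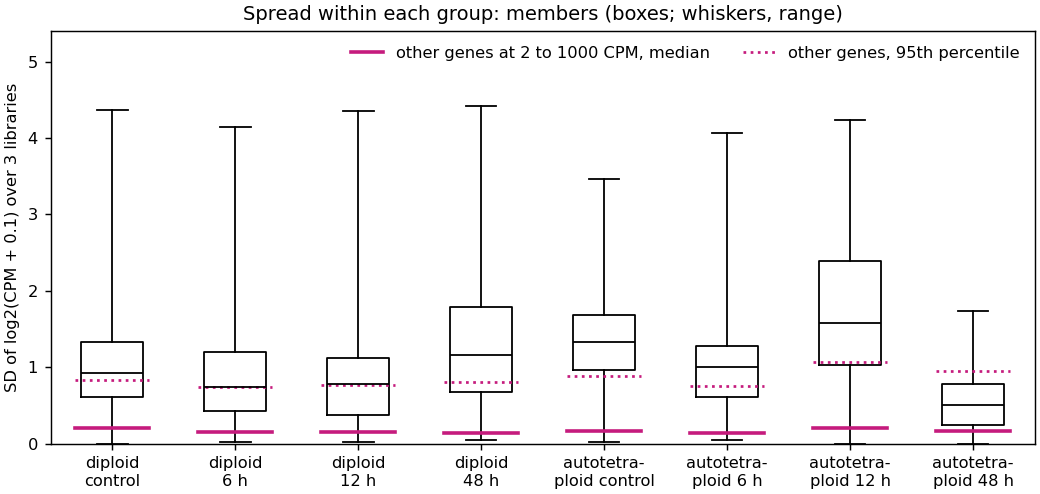
Standard deviation of log2(CPM + 0.1) over the 3 libraries of each group for the 77 genes (boxes span the quartiles, whiskers the range), with the median and the 95th percentile of the other genes at 2 to 1000 CPM as lines. The medians of the 77 lie between 0.506 and 1.58, and those of the other genes between 0.140 and 0.203.

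Much of this variation was shared. Each library's deviation from its group mean on the log2(CPM + 0.1) scale was correlated, gene by gene, with the mean deviation of the other members over the 18 libraries outside the rule. Pearson's r was 0.7 or more in 43 of the 77 genes (55.8%) and in 553 of the other 17961 genes of the range (3.08%), with medians of 0.78 and 0.05. The genes share these 18 libraries, so the coefficients are a description and carry no test. The count was 38 without replicate 3 of the autotetraploid 12 h group, with 1.52% of the others, 43 without replicate 3 of the diploid 48 h group, and 44 without replicate 3 of the diploid control. Without all 3 of these libraries it was 29 (37.7%), with 2.57% of the others.

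The 43 genes with r of 0.7 or more were set apart by deviations within groups, not by their course over the groups. They stood at a median of 2.90% of the autotetraploid control at 48 h, at 68.3% at 12 h and at 118% at 6 h. In the diploid they stood at 29.6%, 35.8% and 41.6% of the control after 6, 12 and 48 h. All 43 had a 6 h mean below that of the diploid control. These diploid means use libraries that r also used, so the ratios are not independent of the choice by r. The median level over the 43 was 7.73, 7.44 and 20.7 CPM in the diploid controls. It was 5.42, 2.42 and 2.94 CPM at 6 h and 4.93, 4.76 and 4.13 CPM at 12 h. At 48 h it was 6.31, 8.65 and 1.80 CPM. At 48 h 38 of the 43 had a diploid mean below that of the control, while LOC107416815 was at 13.8 CPM in the control and 25.5 CPM at 48 h. In the autotetraploid 18 of the 43 had a 6 h mean below that of the control and 33 a 12 h mean below it. The order of the libraries within a group follows from the choice by r and is given as a description. Replicate 3 of the autotetraploid 12 h group was the lowest of its group in all 43, replicate 3 of the diploid 48 h group in 42, and replicate 2 of the autotetraploid 6 h group in 42. Replicate 3 of the diploid control was the highest in 38. The diploid control mean was above the autotetraploid control mean in 42 of them. LOC107415096 with r = 0.95 and LOC107417442 with r = 0.93 were among these genes, and of the 6 genes of highest level only LOC107423864, with r = 0.61, was not.

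The 19 genes with r under 0.3, of which 8 were below 0, were less alike in these deviations. They stood at a median of 4.87% of the autotetraploid control at 48 h, but in the diploid at 79.3% of the control at 6 h, 91.0% at 12 h and 56.3% at 48 h. These diploid ratios, too, use libraries that r used. A swing of at least 50-fold within a group was found in 12 of these 19, against 7 of the 43. LOC107418465 was at 39.2, 51.2 and 4.15 CPM in the diploid controls and at 3.84, 40.3 and 3.88 CPM in the autotetraploid controls. It was at 70.6, 59.9 and 65.3 CPM in the diploid and 72.2, 62.3 and 65.1 CPM in the autotetraploid at 6 h, and at 1.73, 1.70 and 1.70 CPM in the autotetraploid at 48 h. All libraries at 6 h were thus above every control of either ploidy, and the control libraries fell into a high and a low level. The remaining 15 genes, with r from 0.3 to under 0.7, stood at 7.72% of the autotetraploid control at 48 h and at 38.9% of the diploid control at 48 h.

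Genes outside the 77 that followed the same shared deviation were mostly also lower at 48 h. Genes that met the rule are not in this set, so its smaller fall in the autotetraploid follows from the choice. The autotetraploid values also use the libraries of the rule and carry no test. The 553 such genes had a median log2 difference of -0.76 between the autotetraploid 48 h and control means, and 462 of them (83.5%) were lower. In the diploid the median difference at 48 h was -0.42, and 81.2% were lower, while the other 17408 genes had medians of -0.03 and 0.00. The diploid difference uses libraries over which r was taken, so it is not independent of the choice and carries no test. The most alike by r were LOC107427202 with r = 0.96, which went from 14.7 to 6.08 CPM in the autotetraploid, LOC107435551 with r = 0.94, from 10.5 to 3.99 CPM, and LOC107427164 with r = 0.94, from 4.59 to 1.83 CPM.

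Of the 77 identifiers, 52 were found in a reference gene table, and all 52 were protein-coding genes without an established name. In its gene order, 2 pairs lay within 5 positions of each other. LOC107410829 and LOC107410921 had 2 genes between them, and LOC107415767 and LOC107427135 had 4. The within-group deviations of the first pair correlated with r = 0.69 and those of the second with r = 0.01, each over the same 18 libraries. Pairs that involve an identifier outside the 52 could not be seen. No share over all genes is given, so whether 2 pairs are many or few is not known here.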

How the data were processed

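The values tested were gene counts, deposited by the authors as whole numbers per gene and library without normalization, per the file headers. The deposited tables per group hold FPKM values, per the file headers, whose unit was checked against the counts: relative transcript lengths had quartiles of 0.993 and 1.02. Per the submitters' processing notes, HISAT2 and StringTie were used; their versions, the build, the annotation and strand handling are not given in the sources used here, so genes that overlap or share reads with a copy are uncertain. Every column matched 1 library by name.

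Levels are CPM by column sums. Tests used edgeR 4.0.16 in R 4.3.3: filterByExpr by group left 25829 genes, TMM scaling, 1 mean per group over all 24 libraries with robust dispersions (16 residual degrees of freedom), quasi-likelihood contrasts, Benjamini-Hochberg adjustment over all genes, and calls at an adjusted p under 0.05. The SE beside a fold change is its absolute log2 value divided by the square root of the quasi-likelihood F value. It was not estimated by the fit itself. DESeq2 1.42.0, other scalings, no filter, a replicate block, fits of the compared libraries and left-out libraries were alternatives. The members and lists were chosen with earlier results of these data known, and the fall of such genes in the diploid and their spread between libraries were among those results. Genes named with values were the 6 of highest control mean, the 6 of lowest ratio at 5 CPM or more, the called genes of largest change, and the pairs at the limit; LOC107434706, LOC107421975, LOC107416815, LOC107418465 and the genes at 0 were named after their values were seen. Lists by gene description were planned and not used here. The table of the ASM3175591v1 assembly served for gene class and order only.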

Additional observations from a re-analysis of the deposited data

Results flagged for a closer look

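Relative to the control of its own ploidy, LOC107421975 moved in opposite directions in the 2 ploidies at 48 h. Its mean in the diploid 48 h libraries was 8.12 times that of the diploid controls, with every 48 h library above every control, while all its autotetraploid 48 h libraries lay below the autotetraploid controls, as the choice of the genes requires. The ratio was 2.58 without replicate 1 of the diploid 48 h group, which was at 3.31 CPM. The diploid libraries at 6 and 12 h, at 0.282 to 0.467 CPM, also lay above every diploid control. The autotetraploid controls were at 0.586, 9.93 and 3.18 CPM. The autotetraploid was already at 0.379, 0.426 and 0.286 CPM at 6 h and at 0.454, 0.271 and 0.515 CPM at 12 h. It was at 0.272, 0.288 and 0.195 CPM at 48 h. The low level in the autotetraploid was thus not confined to 48 h, and its 48 h libraries lay above every diploid control. The difference between the ploidies was not tested, and the diploid change alone did not pass the test.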

How the results depend on the processing

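The number of genes that met the rule was 226 at a limit of 1/4, 49 at 1/16 and 41 with a control minimum of 5 CPM. It ranged from 69 to 122 when 1 of the 6 libraries was left out, with 118 without replicate 1 of the autotetraploid control and 122 without replicate 1 of the 48 h group. Of the 77 genes, 39 met the rule without replicate 3 of the control and 70 to 75 without any other library. A library left out also leaves the condition on separate libraries, which can then only loosen. What else moved these counts was not tested.

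Counts of members that fell moved most with the test and the limit. DESeq2 called 14, 13 and 7 lower at 6, 12 and 48 h in the diploid, against 13.2%, 17.6% and 3.78% of the genes it tested (2 higher at 48 h), 4 lower between autotetraploid 12 and 6 h, and 1 and 3 lower between the ploidies at 6 and 12 h. A fit of the compared libraries alone gave 14, 13 and 0 in the diploid, against 7.02%, 12.9% and 0.0534% of all genes (0 higher at 6 h, against 7.62%), then 2 for autotetraploid 12 against 6 h, against 2.51%, and 0 for the ploidies at 12 h. No filter on low counts gave 0 higher at 6 h. With members taken at 1/4 (226 genes), 33, 63 and 29 were lower in the diploid at 6, 12 and 48 h. The shares over all genes tested were 9.93%, 15.5% and 0.910%, and the shares of the 226 lay above them. For autotetraploid 12 against 6 h 5 of the 226 were lower, against 5.13%, a share under the background. The counts higher were 3 and 2 in the diploid at 6 and 12 h, against 11.4% and 14.6%. In the autotetraploid 2 were higher, against 2.92%. At 1/16 (49 genes) the counts lower were 3, 4, 1 and 0 in the same order, and 0 between the ploidies at 12 h. Whether the diploid shares at 6 and 12 h lay above or under the background thus depended on the limit and the fit. The number of genes taken at each limit differs by construction. The cause of the other moves was not tested.

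Leaving out 1 library gave 0 to 3, 2 to 5 and 0 to 3 lower in the diploid at 6, 12 and 48 h, 0 to 1 higher at 6 h and at 12 h, and 0 to 1 lower between the ploidies at 12 h. Counts lower without overlap ranged from 31 to 51 at 6 h, 32 to 39 at 12 h and 27 to 43 at 48 h, with shares over the range of 21.8% to 25.9%, 21.2% to 23.8% and 15.8% to 21.2%. The number of genes with r of 0.7 or more ranged from 29 to 44, and was 42 with a pseudocount of 0.5; these settings and the counts of overlap were chosen after seeing the data.

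With the replicate number as a block (replicate block) 2 members were lower and 0 higher in the diploid at 6 h, against 9.48% and 11.1% of all genes. Little pairing by number was seen in the tested comparisons: deviations of same-numbered libraries correlated at -0.07 to 0.07 over genes. In each comparison 1 or 2 of 3 libraries correlated best with their own number. The autotetraploid control and 48 h groups were in none of these comparisons, so pairing with them was not examined. With library totals as the only scaling, the median log2 change over all genes shifted by 0.13 for diploid 12 h and for autotetraploid 12 against 6 h. Over the named calls and their alternatives, 85 stayed on the same side of the threshold, 33 lost the call and 0 reversed. Precision is limited by 3 libraries per group and by the few reads left at 48 h.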
